A study of Mus musculus with 10 samples.

Results

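MHC class II presentation is represented here by 4 genes, H2-Ab1, Cd74, H2-DMa and H2-DMb1, each measured by 1 given probe out of the 24048 probes on the array. The probes were given by identifier, in a choice made with earlier results of these data known, and they are 4 of the 7409 genes that a probe could be named for. The study measured liver RNA of 10 female mice on Illumina bead arrays, with 1 array for each mouse: 5 mice heterozygous for Gyk, the X-linked gene of glycerol kinase, and 5 wildtype mice, C57Bl/6J per the series title. All mice were 23 weeks old and ate chow with 4% fat until 11 weeks of age and chow with 6% fat from then on. The labels name no allele and call the heterozygous mice transgenic, without a promoter or the altered part of the gene. The labels describe separate mice, and their number limits the precision. Replicate numbers only name the mice.

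Class II molecules carry peptides from engulfed material to the cell surface, where CD4+ T cells read them. They are made mainly by dendritic cells, B cells and macrophages. In the liver, Kupffer cells (the resident macrophages) and sinusoidal endothelial cells also carry them, whereas hepatocytes, which make up most of the tissue, have little or none at rest. H2-Ab1 codes for the beta chain of the I-A molecule. Cd74 codes for the invariant chain, which escorts new class II molecules and fills their groove. H2-DMa and H2-DMb1 code for the chains of H2-DM, which removes the remaining piece of the invariant chain so that peptides can bind. The genes share a promoter module, the X and Y boxes, bound by the RFX and NF-Y complexes, and the co-activator Ciita, which interferon gamma induces, acts on it. In a bulk sample of liver, fewer cells of a type and less RNA per cell cannot be told apart.

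The promoter windows of H2-DMb1 and of its neighbour and near copy H2-DMb2 are shown here. The H2-DMb2 probe followed the mean of the 4 genes across the 10 livers (r = 0.88). The probes may not tell these near copies apart, and shared promoter control was not tested. Each window holds the 250 bases before the annotated start, 5′ to 3′ on the + strand, from RefSeq, build GRCm38.p6. The window of H2-DMb1 lies at chr17:34152941-34153190 and that of H2-DMb2 at chr17:34144999-34145248. Capitals mark the letters AACNGATG, the end of the textbook X box, and ATTGG, the core of the Y box.
H2-DMb1: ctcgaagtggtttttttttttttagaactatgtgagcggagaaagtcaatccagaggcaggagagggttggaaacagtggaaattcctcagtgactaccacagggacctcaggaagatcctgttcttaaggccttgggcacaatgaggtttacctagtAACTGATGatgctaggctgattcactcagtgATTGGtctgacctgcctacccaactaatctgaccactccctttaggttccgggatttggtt
H2-DMb2: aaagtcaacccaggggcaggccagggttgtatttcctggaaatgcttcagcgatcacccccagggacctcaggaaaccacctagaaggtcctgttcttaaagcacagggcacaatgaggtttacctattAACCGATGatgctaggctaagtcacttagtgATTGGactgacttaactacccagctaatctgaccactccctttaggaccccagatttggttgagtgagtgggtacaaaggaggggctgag
In both windows ATTGG began 31 bases after AACNGATG. The latter began 92 bases before the start in H2-DMb1 and 121 bases before it in H2-DMb2. Over all 32851 windows of this length, AACNGATG stood on either strand in 1.98% and ATTGG in 33.8%. The motifs do not overlap each other. Both motifs on 1 strand, in that order and with starts 20 to 40 bases apart, were found in 8 windows, of which 4 belong to the class II genes H2-DMb1, H2-DMb2, H2-Eb1 and H2-Eb2. The letters and the spacing were chosen with the H2-DM windows in view. Of the 2 windows of H2-DMa, neither held AACNGATG and 1 held ATTGG. The class II genes Cd74, H2-Aa, H2-Oa and H2-Ob were not among the genes of the 8 windows. A gene without a window in the set, such as H2-Ab1, could not be found. A match is a description of letters, not of binding, and windows of H2-Ab1 and Cd74 are not shown here.

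All 4 genes varied more between livers of one genotype than the genotype means differed. The values are bead intensities as deposited, on a linear scale after background subtraction. H2-Ab1 had 1255.2, 592.7, 578.6, 999.6 and 588.1 in heterozygous livers 1 to 5 (replicate numbers), while wildtype livers 1 to 5 had 463.3, 1331.7, 1156.7, 701.9 and 1201.4. Cd74 had 1365.1, 915.5, 701.5, 1368.6 and 867.3 in the heterozygous livers, and 583.6, 1569, 1055.8, 611.1 and 1044.1 in the wildtype livers. In both genes heterozygous replicates 1 and 4 and wildtype replicates 2, 3 and 5 were the high livers, and the groups overlapped. The highest H2-Ab1 intensity was 2.87 times the lowest and the highest Cd74 intensity 2.69 times the lowest.

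The H2-DM genes were dim. A probe counted as detected above the value that noise exceeds with a probability of 0.05 on its array, which was 22.0 to 41.2. H2-DMb1 had 137.2, 58.9, 32.4, 104.8 and 57.1 in the heterozygous livers, and 5.1, 127.2, 111.1, 34.8 and 95.6 in the wildtype livers. It was detected in 9 livers, and wildtype replicate 1 lay below its array's threshold. H2-DMa had 67.1, 22.9, 30.1, 69 and 42.9 in the heterozygous livers, and 33.7, 91.2, 67.9, 27.2 and 63.9 in the wildtype livers. It was detected in 8 livers, and wildtype replicates 1 and 4 lay below the threshold.

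For the comparisons, 95.2 was added to each value, log2 was taken and the arrays were quantile normalized. On this scale the same 5 livers held the 5 highest values of all 4 genes, 2 of them heterozygous (replicates 1 and 4) and 3 wildtype (replicates 2, 3 and 5). Wildtype replicate 2 was the highest liver and wildtype replicate 1 the lowest for every one of the 4 genes. The SD over the 10 livers was 0.52 for H2-Ab1, 0.46 for Cd74, 0.40 for H2-DMb1 and 0.24 for H2-DMa, where the median SD of the probes detected on at least 5 arrays was 0.19. H2-Ab1 varied more than 94.5% of the 10225 probes so kept, Cd74 more than 92.5%, H2-DMb1 more than 89.8% and H2-DMa more than 67.7%. The added constant narrows the spread of dim probes, and a part of their spread is noise.

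**Figure D1:**
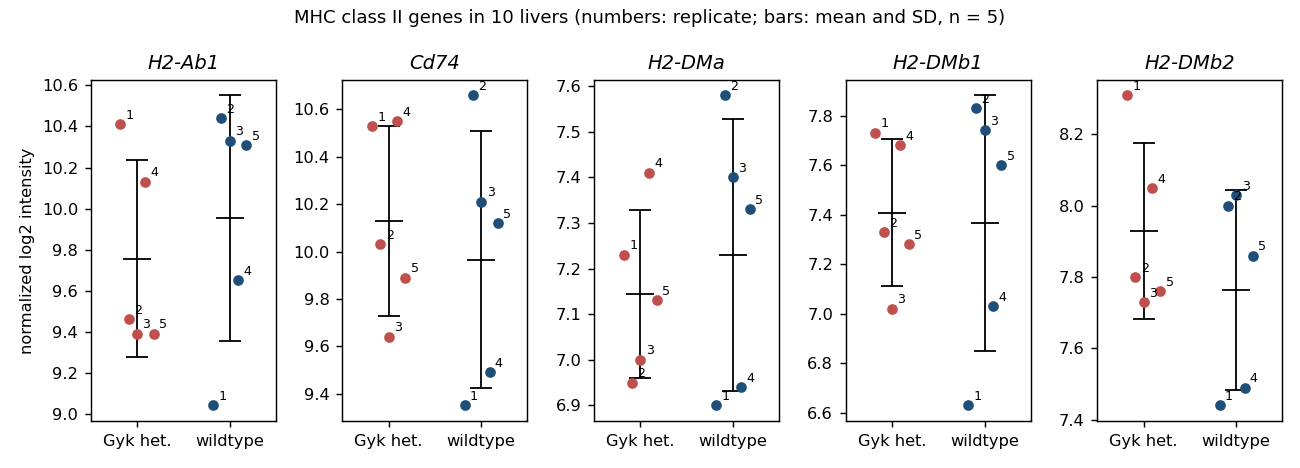
Normalized log2 intensity (y axis, a separate range in each panel) of the 4 class II genes and H2-DMb2 in 5 Gyk heterozygous and 5 wildtype livers. Points are livers with their replicate number, and bars are the mean and SD; heterozygous replicates 1 and 4 and wildtype replicates 2, 3 and 5 lie high in each panel, and the groups overlap.

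The 4 genes rose and fell together from liver to liver. As the genes were chosen with earlier results of these data known, the p-values of the pairs are not those of a blind choice. All 6 pairs were positively correlated over the 10 livers, with Pearson's r between 0.85 and 0.95 and Spearman's rho between 0.77 and 0.94. The closest pair was Cd74 and H2-DMb1, with r = 0.95 (two-sided permutation p = 1e-05, the smallest that 100000 resamples can give, adjusted over the 6 pairs 6e-05) and rho = 0.94 (permutation p = 0.0002, adjusted 0.00092). The loosest by r was H2-Ab1 and Cd74, with r = 0.85 (permutation p = 0.00284, adjusted 0.00341) and rho = 0.84 (permutation p = 0.00403, adjusted 0.00484). The highest adjusted permutation p of the 6 pairs was 0.00377 for r and 0.0127 for rho. Without the 2 livers farthest from the median of the first gene, wildtype replicate 1 and wildtype replicate 2 or 4, r was 0.74 to 0.92. With each group's mean removed r was 0.87 to 0.96. Within the heterozygous group alone it was 0.77 to 0.99 and within the wildtype group 0.92 to 0.99, given as descriptions of 5 livers each.

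**Figure D2:**
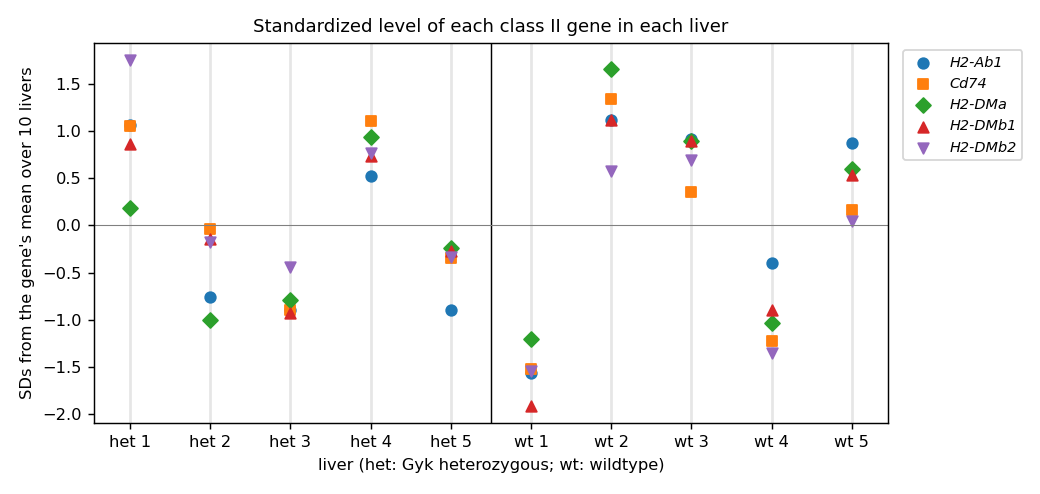
Level of the 4 class II genes and of H2-DMb2 in each liver (x axis), in SDs from that gene's mean over the 10 livers (y axis). The 4 genes lie on the same side of 0 within each liver, though spread by up to about 1 SD in some (heterozygous replicates 1 and 2), with wildtype replicate 1 lowest. H2-DMb2 lies above all 4 in heterozygous replicate 1. The vertical line parts the groups.

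The arrays of heterozygous replicate 1 and wildtype replicate 1 stood apart from the others over all kept probes, at -36.5 and -39.3 on the first principal component against -7.32 to 22.1. Without these 2 livers the 6 pairs had r between 0.75 and 0.94 over 8 livers. The exact permutation p for r, adjusted over the pairs, was at most 0.0404. For rho it was at most 0.0441 in 5 pairs and 0.0694 for H2-Ab1 and H2-DMa (rho = 0.69). The first component moved with the class II genes among those 8 livers: its r with their mean (each gene standardized) was 0.82 over 8 and 0.46 over 10 livers. Its part in the covariation was not tested.

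**Figure D3:**
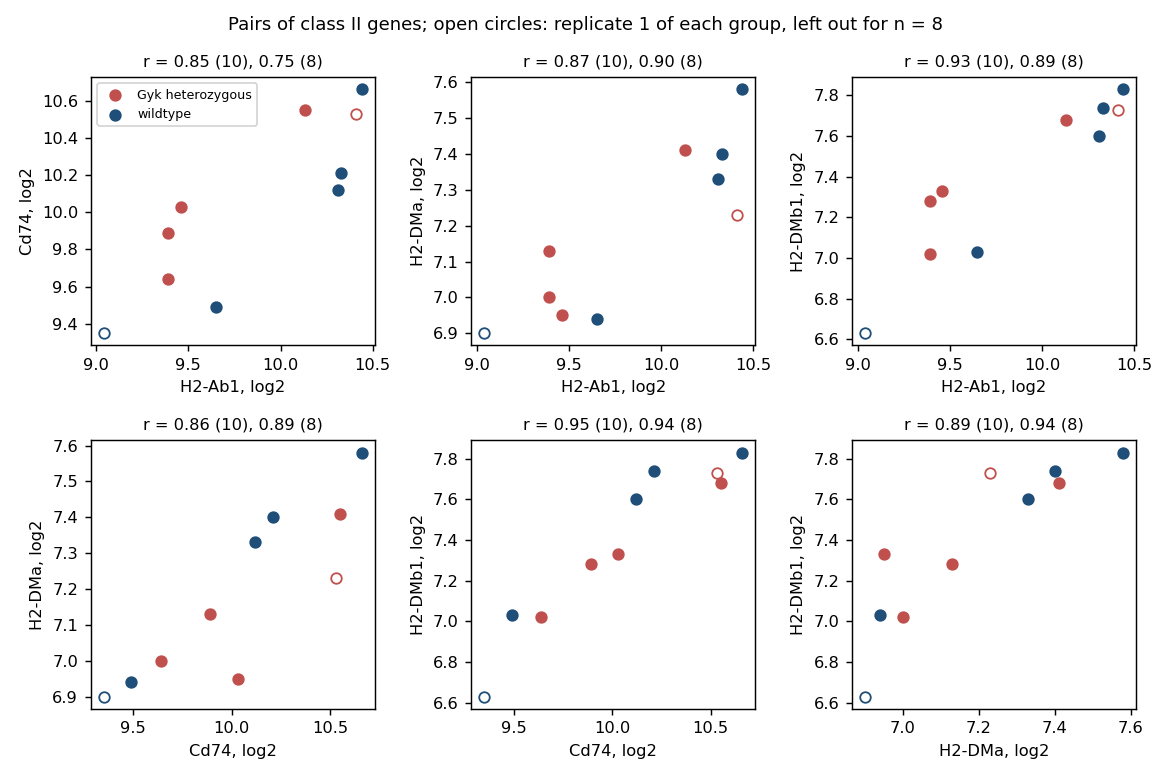
Normalized log2 intensity of 1 class II gene against another, for the 6 pairs of the 4 genes, with each point a liver. Open circles are replicate 1 of each group, which are in the first r (10 livers, 0.85 to 0.95) and not in the second (8 livers, 0.75 to 0.94).

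Each gene was also set against the standardized mean of the other 3, as a description across probes that share the arrays. Among 10222 probes, H2-DMb1 was the 4th closest to the other 3 genes (r = 0.97), Cd74 the 7th (r = 0.92), H2-Ab1 the 10th (r = 0.91) and H2-DMa the 15th (r = 0.90). Over the 10221 kept probes other than the 4 genes, the median r with the mean of all 4 was 0.04 and the 95th percentile 0.59. Over 8 livers these were 0.02 and 0.67. An r over 0.8 in both the 10 and the 8 livers was reached by 53 of them, 0.519%, of which 19 had a gene name.

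Named genes close to the mean of the 4 were ranked by the lower r of the 10 and the 8 livers, and 7 of the first 8 are given. Lst1, a leukocyte gene of the MHC region, had an intensity from 190 to 704.2 (r = 0.92 over 10 and 0.96 over 8 livers). Gbp2b, a guanylate-binding protein gene induced by interferon, ran from 12.9 to 151.4 (r = 0.93 and 0.89). H2-DMb2 ran from 83 to 243.2 (r = 0.88 and 0.89). Entpd2, an enzyme that splits ATP outside cells, ran from 85.7 to 147.5 (r = 0.92 and 0.88). The histone genes H2ac10, H2ac22 and H2ac24 had r of 0.87 to 0.88 over 10 and 0.90 to 0.92 over 8 livers. These 3 come from a family of near-identical copies that the probes may not tell apart, and the same holds for H2-DMb1 and H2-DMb2.

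None of the 4 genes differed detectably between genotypes. In H2-Ab1 the heterozygous livers had a normalized log2 level of 9.76 ± 0.48 (SD, n = 5) and the wildtype livers one of 9.96 ± 0.60 (SD, n = 5). The difference, heterozygous minus wildtype, was -0.20 (SE 0.30) with a 95% confidence interval of -0.85 to 0.46 (limma adjusted p = 0.847). In Cd74 the levels were 10.13 ± 0.40 and 9.96 ± 0.54 (SD, n = 5 each), a difference of 0.17 (SE 0.26) with an interval of -0.41 to 0.74 (limma adjusted p = 0.860). In H2-DMa they were 7.15 ± 0.19 and 7.23 ± 0.30, a difference of -0.08 (SE 0.15) with an interval of -0.40 to 0.24 (limma adjusted p = 0.869). In H2-DMb1 they were 7.41 ± 0.30 and 7.36 ± 0.51, a difference of 0.04 (SE 0.23) with an interval of -0.47 to 0.56 (limma adjusted p = 0.966). The two-sided exact permutation p over 252 assignments was 0.579, 0.611, 0.611 and 0.897 in the same order, where 0.00794 is the smallest possible.

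Of the 4 genes 0 were called by limma at an adjusted p under 0.05, and 0% of the 10225 kept probes were. At an unadjusted p under 0.05 there were 0 of the 4 genes and 11.9% of all kept probes. The groups were apart in 0 of the 4 genes and in 1.77% of all kept probes. As ratios, with the constant in the values, the intervals ran from 0.554 to 1.37 for H2-Ab1 and from 0.752 to 1.67 for Cd74. For H2-DMa they ran from 0.756 to 1.18 and for H2-DMb1 from 0.723 to 1.47. Differences within the 4 intervals are not resolved by 5 livers a group. In the dim H2-DMa and H2-DMb1 the constant narrows such ratios strongly. The highest H2-DMa value was 3.98 times the lowest in intensity and 1.60 times on the normalized scale with the constant. For H2-DMb1, whose lowest value was not detected, these were 26.9 and 2.28. The intervals of these genes thus do not bound the ratio of their intensities.

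The size of the H2-Ab1 difference depended on which livers were included. Without both first replicates its log2 difference was -0.59 (SE 0.21, limma adjusted p = 0.153, unadjusted 0.0195). In that setting 2132 of the 10225 kept probes had an unadjusted limma p under 0.05. Without wildtype replicate 1 alone the H2-Ab1 difference was -0.43, without heterozygous replicate 1 alone -0.36, and without wildtype replicate 2 alone -0.08. It was -0.12 without heterozygous replicate 2, -0.11 without heterozygous replicate 3 or 5 or wildtype replicate 5, and -0.10 without wildtype replicate 3. Cd74 had a change of -0.09 without both first replicates and H2-DMb1 one of -0.22, each with the sign turned, and H2-DMa had -0.19. The Cd74 difference also moved with single livers, from 0.012 to 0.3375 with 1 left out at a time.

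The leading number of the sample titles, whose meaning the labels do not give, is 1 or 2 in the heterozygous mice, 1 and 2 in wildtype replicates 1 and 2 and 7 in the other 3 wildtype mice. Among mice with the number 1, H2-Ab1 was higher in the 3 heterozygous livers than in the 1 wildtype liver, by 0.71 on the log2 scale. Among those with the number 2 the difference in H2-Ab1 between 2 heterozygous livers and 1 wildtype liver was -0.68. Cd74 had 0.72 and -0.43 in the same comparisons, H2-DMa 0.16 and -0.31, and H2-DMb1 0.73 and -0.35. All 4 genes thus changed sign between the 2 numbers, each with a single wildtype liver, wildtype replicate 1 in the first and wildtype replicate 2 in the second. These were the lowest and the highest of all livers in each of the 4 genes. The signs follow from that and say nothing further about genotype. A fit that held this number as a block gave H2-Ab1 a difference of 0.05 (SE 0.39). That fit draws the genotype difference from the same 2 comparisons, as all mice with the number 7 are wildtype.

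**Figure D4:**
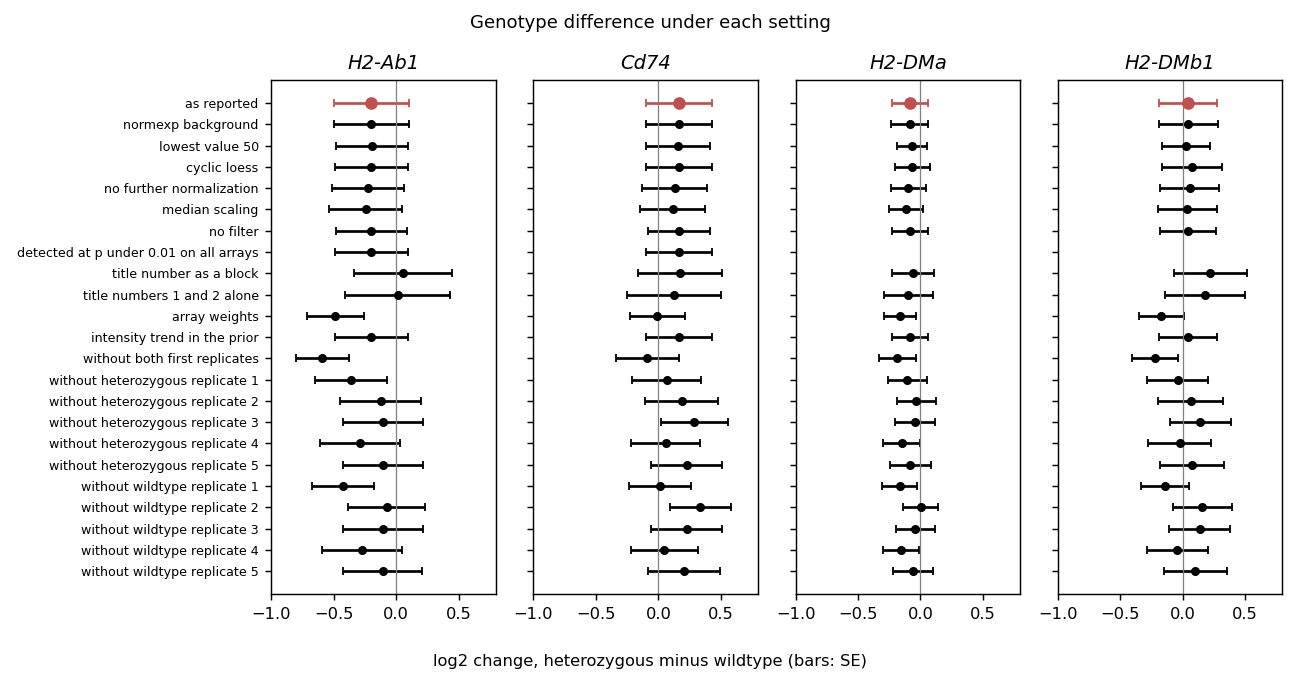
Log2 change (x axis, heterozygous minus wildtype, bars are SE) of the 4 class II genes under the reported setting, in red, and each alternative. H2-Ab1 runs from -0.59 without both first replicates to 0.05 in the fit blocked by title number. Over the alternatives Cd74 runs from -0.09 to 0.34, H2-DMa from -0.19 to 0.003 and H2-DMb1 from -0.22 to 0.22.

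Other genes of the pathway were taken from lists, with 1 probe a gene. Of 11 class II molecules 5 had a detected named probe, and 3 were higher, 2 lower and 0 called by limma (0 at an unadjusted p under 0.05, as in the next 2 lists) in heterozygous liver, with a median log2 change of 0.04 against -0.01 over all kept probes. The member beyond the 4 was H2-DMb2, at an intensity of 152.6 ± 54.9 (SD, n = 5) in the heterozygous and 125 ± 34.5 (SD, n = 5) in the wildtype group (log2 change 0.16, limma adjusted p = 0.722). Of 11 regulators 6 were detected, with 0 higher, 6 lower and 0 called and a median of -0.12. Of the 10225 kept probes 5473 were lower. Of the regulators, Rfx5, a subunit of the RFX complex, had an r of 0.21 with the 4 genes over 10 livers (0.52 over 8). Rfxank, another subunit, had -0.63 (-0.39), and Nfyb, a subunit of NF-Y, 0.44 (0.68). Rfxap had 0.19 (0.05), Creb1 0.50 (0.57) and Marchf8 -0.35 (-0.49). Of 9 genes of antigen processing 4 were detected and 0 called, with a median of 0.10, among them the thiol reductase gene Ifi30 (r = 0.50 and 0.44) and the protease gene Ctsb (brighter probe, r = -0.34 and -0.42).

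The class I list, whose molecules serve CD8+ T cells, had members on both sides of 0 in their r with the class II genes. Of its 17 genes 7 were detected and 0 called by limma, with a median log2 change of 0.03. H2-T23 had an unadjusted p under 0.05, as had 11.9% of all kept probes. The median r of the 7 with the 4 class II genes was 0.28 over 10 and -0.18 over 8 livers. H2-K1, a class I heavy chain, had an r of -0.22 over 10 and -0.41 over 8 livers. Psmb10, a subunit of the immunoproteasome, had 0.71 over both.

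The interferon gamma list had a higher median r with the class II genes than all kept probes had. Of its 18 genes 9 were detected and 0 called by limma (Ifngr2 and Jak2 at an unadjusted p under 0.05), with a median log2 change of 0.11, and 8 of the 9 had an r above 0 over 10 livers and 7 over 8 livers. The median r was 0.61 over 10 and 0.56 over 8 livers, where all kept probes had 0.04 and 0.02. The chemokine gene Cxcl9 had 0.76 and 0.83, the GTPase gene Igtp 0.74 and 0.82, Irf9 0.64 and 0.66, Irf1 0.61 and 0.56, and the receptor gene Ifngr2 0.07 and 0.13. The kinase gene Jak2 had -0.20 and -0.29, Socs1, a feedback inhibitor, 0.03 and -0.39, and Gbp2 0.15 and 0.31. Cd274, a ligand of PD-1, an inhibitory receptor on T cells, was the detected gene of the co-stimulation list of 9 (r = 0.86 and 0.79).

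Detected markers of B cells and of macrophages had positive r with the 4 class II genes, though the macrophage sum did not follow the class II order in every liver: wildtype replicates 3 and 5 (1368.8 and 1443.6), high in class II, lay below heterozygous replicate 2 (1626.1), low in class II. Of 10 B cell markers 2 had a named probe and both were detected, Cd72 (r = 0.89 over 10 and 0.84 over 8 livers) and Ighm (0.84 and 0.84). Their summed intensity ran from 415.1 to 1271.4 in heterozygous and from 418.1 to 1064.1 in wildtype liver, and neither was at 0. Of 14 Kupffer cell and macrophage markers 4 were detected, C1qa (0.90 and 0.86), C1qb (0.77 and 0.66), Cd68 (0.75 and 0.58) and Csf1r (0.54 and 0.40). Their sum ran from 1223 to 2452 in heterozygous and from 965.5 to 2667.3 in wildtype liver, and r of its log2 with the class II mean was 0.84 over 10 and 0.77 over 8 livers. A sum is weighted by how bright each probe is. Of 11 dendritic cell markers 1, Zbtb46, was detected, at 53.1 to 110.1 in heterozygous and 60.5 to 96.3 in wildtype liver (r = 0.36 and 0.46). The part of any cell type in the class II levels was not tested.

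For the other lists the r of the log2 sum of deposited intensities, not normalized, is given with the same caution. Single markers within a list of several are given on the normalized scale. The 3 endothelial markers had 0.62 over 10 and 0.43 over 8 livers, with the sum from 4308.5 to 6047.4 in heterozygous and 4594.1 to 5761.7 in wildtype liver. That sum is mostly the bright Clec4g (r = 0.51 and 0.22), while Eng had 0.75 and 0.79 and Pecam1 -0.40 and -0.73. Cd3e, the 1 detected T and NK cell marker of 10, had 0.61 and 0.16 (0.60 and 0.28 on the normalized scale). The general leukocyte markers had 0.02 and 0.28, neutrophils 0.25 and 0.39, stellate cells 0.23 and 0.21, cholangiocytes -0.06 and -0.35, and erythroid cells 0.20 and 0.18. Within the leukocyte list Cd52 had 0.71 and 0.59, Cd53 0.28 and -0.16, and Lcp1 -0.29 and -0.46. Within the stellate list Lrat had 0.60 and 0.71, Dcn 0.42 and 0.35, and Reln 0.01 and -0.14. The sum of the 4 hepatocyte markers detected of 10 had -0.19 and 0.04, and their probes ran from 12666.1 to 55556.2. Singly they went both ways: Apoa1 had 0.61 and 0.63, and Serpina1a -0.48 and -0.67. Apoc3 had 0.09 and 0.41, and Ass1 0.05 and -0.32. Over these 11 cell type lists limma called 0 genes. Csf1r and Dcn had an unadjusted p under 0.05, as had 11.9% of all kept probes.

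**Figure D5:**
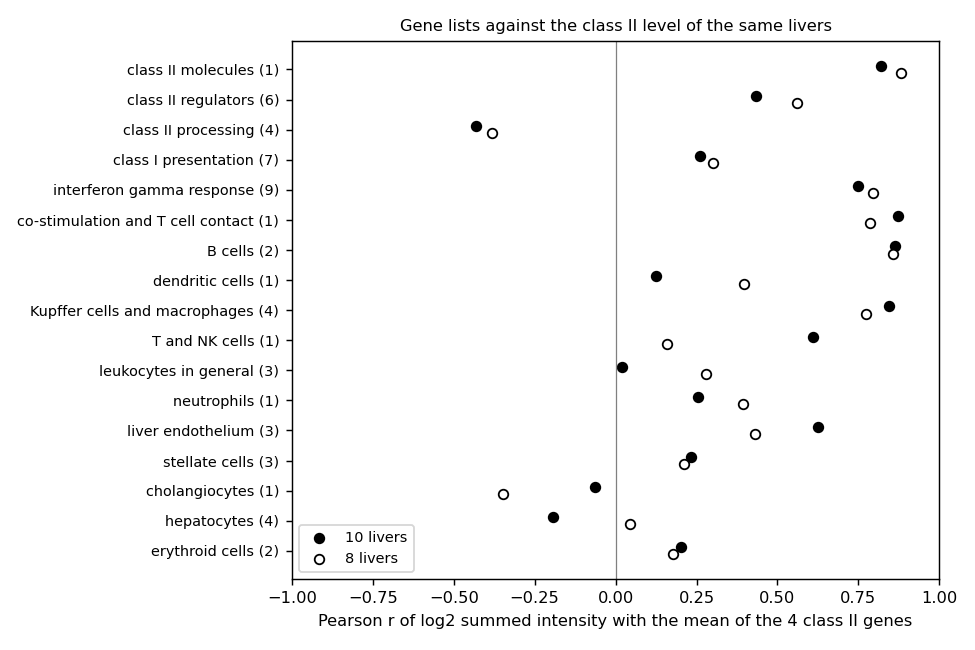
Pearson's r (x axis) between the log2 of a list's summed deposited intensity, not normalized, and the mean of the 4 class II genes. Filled points are 10 livers and open points the 8 without both first replicates. The number of detected genes other than the 4 is in parentheses. For a list of 1 gene, r can differ from the normalized single-probe r, as for Zbtb46 (0.12 and 0.40 here, 0.36 and 0.46 normalized). H2-DMb2 (the class II molecules entry), B cell and Kupffer cell markers, Cd274 and the interferon gamma list lie highest. The hepatocyte sum lies near 0, though its single markers went both ways.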

How the data were processed

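Liver RNA was amplified, labelled with biotin and hybridised to Illumina mouse arrays, per the labels' protocols. The deposited intensity values were made with BeadStudio 1.5.1.3, per the submitters' processing notes. They are linear and background subtracted (31.1% to 33.1% of each array's values are below 0), and whether the authors scaled the arrays to each other is not given in the sources used here. Array medians ran from 14 to 24. A second table holds 80 columns named by chip position, which no label ties to a sample, and they were not used.

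A constant of 95.2 was added, which put the lowest value at 16. The log2 values were then quantile normalized (limma 3.58.1, R 4.3.3). Probes detected on at least 5 of 10 arrays were kept, 10225 of 24048. Detection meant exceeding 1.64 times the root mean square of the array's values below 0. The genotype comparison used a limma fit over these probes (moderated test, two-sided, default prior, Benjamini-Hochberg over kept probes, threshold 0.05), and the 4 genes also by exact permutation. The fit was tested on simulated data. Correlations of single probes used normalized log2 values, with permutation tests for the pairs of the 4 genes. For list sums the log2 of the summed deposited intensities was set against the normalized class II mean. Those sums had no constant added and no quantile normalization, and their r was not tested. Gene names come from the number inside a probe's identifier, taken as a gene identifier and matched to a RefSeq table (8884 probes, 7409 genes). This is an inference, and probe sequences were not used here. The members, lists and tests were chosen with earlier results of these data known. The rule named the 4 genes, the detected genes of the class II lists, cell type markers and the 8 closest genes, of which 1 is not reported here. Ifi30, Ctsb and other list genes fall under it, and the class I, interferon gamma and co-stimulation genes were picked after their values were seen. Alternatives were normexp (offset 50), a lowest value of 50, cyclic loess, median scaling, no further normalization, no filter, a stricter filter, the title number as a block or its shared values alone, array weights, an intensity trend, and leaving out each array or both first replicates.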

Additional observations from a re-analysis of the deposited data

Results flagged for a closer look

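A further probe assigned to H2-Ab1 by its number did not follow the other. It was detected on 4 of 10 arrays, with intensities of 481.3, 27.3, 6.8, 9.8 and 17.9 in the heterozygous livers (replicates 1 to 5) and 177, 7.3, 2.1, 117.5 and 23.6 in the wildtype ones. Heterozygous replicate 1 lay far above the other heterozygous livers, at a normalized log2 value of 9.12 against 7.01 for the next, a gap of 0.865 of the group's range. Heterozygous replicate 1 and wildtype replicate 1 are also the arrays that stood apart over all probes. Wildtype replicate 4, the next highest liver at 117.5, had the next lowest value on the first principal component, -7.32. Chance flags about 1 in 20 groups of samples, and 48 groups of 24 probes were checked, with 1 flag. The cause was not tested.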

How the results depend on the processing

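The count of 6 correlated pairs (permutation p of Pearson's r under 0.05 adjusted over the pairs) was 6 under all 17 alternatives run on it, with single r from 0.75 to 0.97. The count was not made by rho. Over the livers without both first replicates, rho of H2-Ab1 and H2-DMa had an adjusted permutation p of 0.0694. None of the 4 genes was called by limma under any alternative, with the lowest adjusted p at 0.153 (H2-Ab1 without both first replicates), but directions were not stable. H2-Ab1 had 0.0547 when blocked by title number and 0.0128 in mice with title numbers 1 and 2 alone. H2-DMb1 had 0.2221 when blocked by title number. In both settings wildtype replicates 1 and 2, the lowest and the highest liver, were the only wildtype livers behind the genotype difference. With array weights H2-Ab1 had -0.4875 (unadjusted p 0.0572), Cd74 -0.0068 and H2-DMb1 -0.1694, and without both first replicates Cd74 had -0.0871, H2-DMb1 -0.2215 and H2-DMa -0.1855. Leaving out 1 liver at a time gave -0.4253 to -0.0753 for H2-Ab1, 0.012 to 0.3375 for Cd74, -0.166 to 0.003 for H2-DMa and -0.1402 to 0.1593 for H2-DMb1. Over all kept probes the count of calls was 0, but 410 with array weights, 221 without both first replicates and 0 to 441 with 1 liver left out, 441 being without wildtype replicate 1. At an unadjusted p under 0.05 it was 1221, against 506 when blocked by title number and 351 with title numbers 1 and 2 alone. That count was 2342 with array weights and 2132 without both first replicates. The strict filter left H2-DMa and H2-DMb1 out, so it gave no value for them. No paired analysis was possible because the replicate numbers only name the mice. Dimness limits H2-DMa and H2-DMb1, which lay near the detection thresholds in several livers. The causes were not tested.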

Other observations

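Although Cd74 and H2-Ab1 rose and fell together, the distance between them differed by liver. This was chosen after the values were seen. The log2 value of Cd74 minus that of H2-Ab1, whose zero has no meaning as the probes differ, was 0.12, 0.57, 0.25, 0.42 and 0.50 in heterozygous livers 1 to 5. It was 0.30, 0.21, -0.12, -0.16 and -0.19 in wildtype livers 1 to 5. The group means were 0.37 ± 0.18 (SD, n = 5) and 0.01 ± 0.23 (SD, n = 5), a difference of 0.36 with overlapping groups (two-sided exact permutation p = 0.0397 over 252 assignments, not corrected for the choice). The 3 wildtype livers below 0 are those with the title number 7, and the other 2 wildtype livers, at 0.21 and 0.30, lay within the heterozygous range of 0.12 to 0.57. Genotype and title number cannot be told apart in those 3 livers.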
